A study of Rattus norvegicus with 12 samples.

Results

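The genes of glucose breakdown and of the response to low oxygen were followed in primary rat cortical neurons exposed to halothane or isoflurane. The set was a list of 35 gene symbols, and a probe belonged to it when the platform annotation named one of those symbols. Named probes were found for 31 of the 35 genes, out of 9652 named genes on the array, and all 31 were among the 16545 features tested. They comprised 4 transporters, 14 glycolytic enzymes, 3 regulators of glycolytic flux, 8 targets of the hypoxia-inducible factors (HIF) and 2 HIF subunits. Gapdh, Eno2, P4ha1 and Car9 were not analysed here.

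Glycolysis splits glucose into pyruvate in a chain of cytosolic enzymes, and lactate dehydrogenase can turn that pyruvate into lactate. In well-oxygenated cells the HIF alpha subunits are hydroxylated and degraded, and when oxygen falls they persist, pair with their beta subunit and raise transcription of glucose transporters, glycolytic enzymes, vascular factors and mitophagy genes. In brain cultures astrocytes are known for high glycolytic activity and lactate export, while neurons rely more on oxidative metabolism.

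Cells came from the fetal brains of 3 pregnant rats at day 17 of pregnancy, with 4 plates per rat, and were treated on day 16 in vitro. Each of the 4 groups had 3 two-colour arrays: halothane at 1 MAC (about 1%), halothane at 3 MAC (about 3%), isoflurane at 3 MAC (about 4%), and control plates in air. MAC is the minimum alveolar concentration, the unit of potency of an inhaled anaesthetic. Of these volatile agents, halothane is an alkane and isoflurane an ether, both carrying halogens. Gas was given for 6 h in a sealed chamber and RNA was taken after 6 h of recovery. Control plates stood in the same incubator but not in the chamber, so time in the chamber and the gas cannot be told apart. The labels do not say which rat each array came from, and the p-values measure the spread between these plates.

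Each value is a log2 ratio against a pool of control RNA that was shared by all arrays. Its direction (Cy5 sample over Cy3 pool) and the base 10 of the deposited logarithm are likely and not stated. If the direction were opposite, all signs given here would turn. Because the ratios are relative to a pool, no gene's level can be set against another's, and the presence of neuronal markers cannot be read from them. Fewer cells of a type and less RNA per cell cannot be told apart. All 3 comparisons with air share the same 3 control arrays, and both comparisons of halothane 3 MAC with another treatment share its arrays.

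Halothane 1 MAC replicate 1 and control 2 stood apart from their groups. Over all genes and unnamed spots the median log2 ratio of halothane 1 MAC replicate 1 was 0.27, and those of the 11 other arrays were −0.01 to 0.01. The SD was 0.82 on the former array and 0.32 to 0.48 on the others. It held 330 exact zeros, against 953 to 2124. Of 471 spots at the limit of the deposited values it held 0 there, and the others 467 to 471. Halothane 1 MAC replicate 1 also held the highest or the lowest of the 12 values for 21 of the 31 genes. Isoflurane replicate 2 did so for 14 (9 highest and 5 lowest), and each remaining array for 1 to 4. Over the 31 genes isoflurane replicate 2 still correlated with the other isoflurane arrays at 0.850 and 0.870. Over the 31 genes, control 2 had a Pearson correlation of 0.716 to 0.767 with the 3 halothane 3 MAC arrays and of −0.04 with each of the other controls. Control 3 correlated with the isoflurane arrays at 0.679 to 0.874. These correlations run over genes of the same arrays and are descriptive. Where a printed difference of one of the 31 genes moved by over 1.5 times, or its call changed, without one of these arrays, the value without it is given.

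The plot of every gene on every array shows the whole set. Over these genes the correlation among halothane 3 MAC arrays was 0.795 to 0.911, while halothane 1 MAC replicate 1 correlated with its own group at 0.493 and 0.529.

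**Figure D1:**
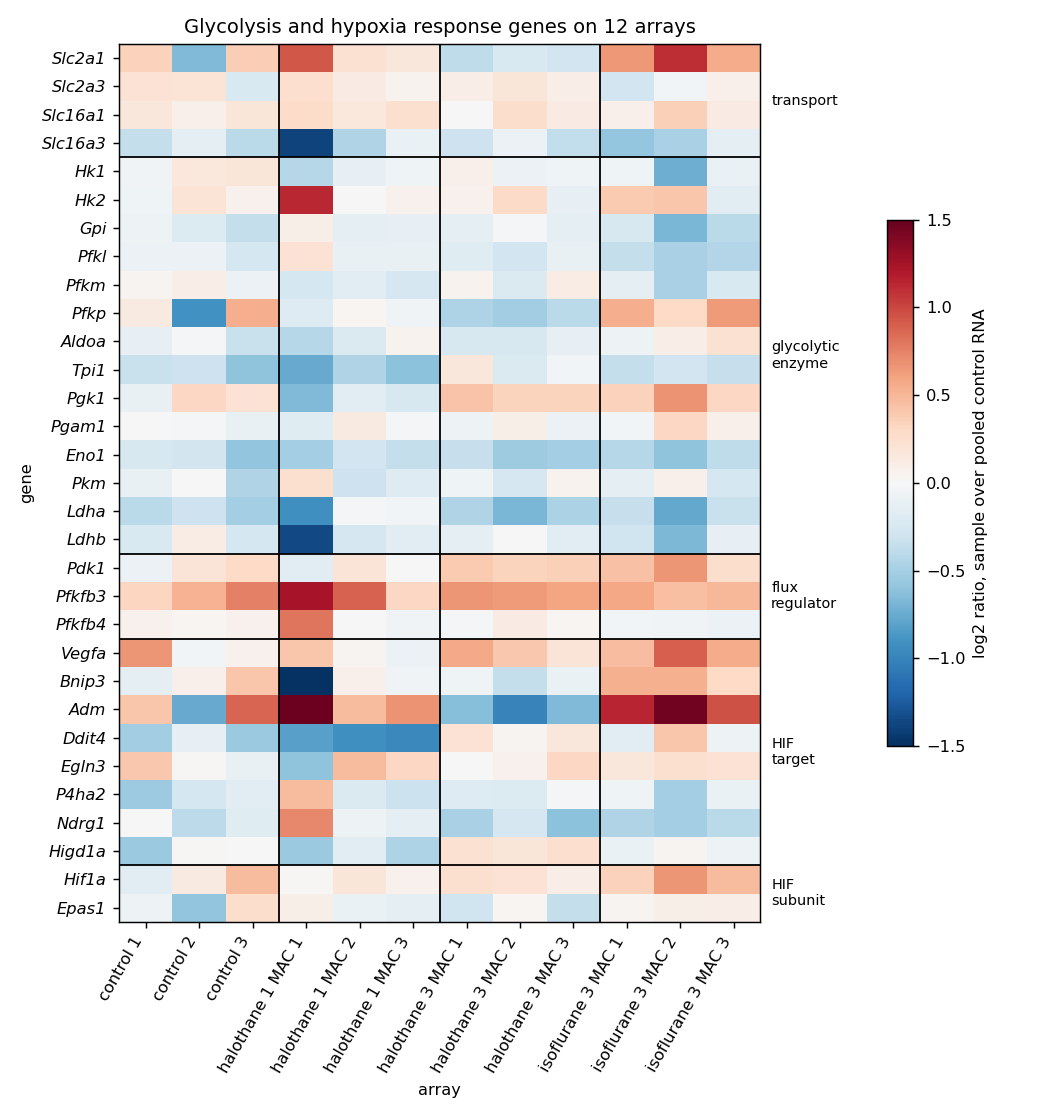
Log2 ratio of sample over pool (colour scale) for the 31 measured genes (rows, ordered by role) on the 12 arrays (columns, ordered by group). The column of halothane 1 MAC replicate 1 holds the highest or the lowest value of 12 for 21 genes, and Adm is low on control 2 and on the 3 halothane 3 MAC arrays.

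HIF binds DNA at a core of A or G followed by CGTG. The letters ACGTG and GCGTG were searched on both strands, where they read CACGT and CACGC, in the 250 bases before the start that the RefSeq promoter table uses for each gene. Of the 31 measured genes 28 had a RefSeq window, and 16 of these (57.1%) held a match, against 37.9% of the 27457 windows of all genes. For 12 of the 28, Adm and Pfkp among them, the RefSeq gene table reaches further upstream, so the window belongs to one of several starts. Among glycolytic enzymes 7 of 13 windows matched and among HIF targets 4 of 7. Slc2a3, Pgk1 and Ndrg1 are named only. The following 6 windows, of genes whose values carry the comparisons, are printed 5′ to 3′ on the strand of the gene with matches in capitals (RefSeq, GRCr8).
Adm: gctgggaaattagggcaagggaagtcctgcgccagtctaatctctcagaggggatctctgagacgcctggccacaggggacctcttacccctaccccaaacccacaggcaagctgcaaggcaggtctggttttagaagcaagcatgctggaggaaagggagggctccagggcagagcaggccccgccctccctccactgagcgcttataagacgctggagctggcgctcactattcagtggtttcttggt
Slc2a1: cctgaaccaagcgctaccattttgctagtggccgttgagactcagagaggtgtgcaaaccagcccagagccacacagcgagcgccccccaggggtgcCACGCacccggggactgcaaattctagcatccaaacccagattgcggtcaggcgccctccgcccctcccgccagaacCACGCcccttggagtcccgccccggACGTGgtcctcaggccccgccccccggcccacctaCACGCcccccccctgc
Pfkp: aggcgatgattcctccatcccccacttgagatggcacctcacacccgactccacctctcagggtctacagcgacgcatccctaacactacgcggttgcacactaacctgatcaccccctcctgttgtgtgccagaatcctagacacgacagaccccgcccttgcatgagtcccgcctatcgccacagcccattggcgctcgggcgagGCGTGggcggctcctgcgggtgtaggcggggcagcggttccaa
Tpi1: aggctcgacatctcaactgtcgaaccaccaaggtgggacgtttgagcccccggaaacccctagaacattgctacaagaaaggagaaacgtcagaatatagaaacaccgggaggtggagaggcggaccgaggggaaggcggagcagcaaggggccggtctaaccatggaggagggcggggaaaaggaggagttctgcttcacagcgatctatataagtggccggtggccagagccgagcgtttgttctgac
Ddit4: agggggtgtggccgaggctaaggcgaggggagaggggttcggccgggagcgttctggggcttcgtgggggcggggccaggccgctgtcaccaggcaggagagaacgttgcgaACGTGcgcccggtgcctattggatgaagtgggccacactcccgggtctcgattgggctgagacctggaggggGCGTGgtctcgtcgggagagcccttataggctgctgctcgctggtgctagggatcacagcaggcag
Higd1a: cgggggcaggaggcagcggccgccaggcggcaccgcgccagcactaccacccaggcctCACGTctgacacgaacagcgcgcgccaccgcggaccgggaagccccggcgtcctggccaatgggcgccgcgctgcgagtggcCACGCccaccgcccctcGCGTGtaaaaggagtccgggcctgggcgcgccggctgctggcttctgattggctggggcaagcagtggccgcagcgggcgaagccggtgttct
The windows lie at chr1:174179950-174180199 on the plus strand for Adm, chr5:138002272-138002521 on the plus strand for Slc2a1 and chr17:68639563-68639812 on the plus strand for Pfkp. They lie at chr4:159305089-159305338 on the minus strand for Tpi1, chr20:28437038-28437287 on the minus strand for Ddit4 and chr8:130400889-130401138 on the minus strand for Higd1a. The Slc2a1 window held 4 matches, Higd1a 3, Ddit4 2 and Pfkp 1. The windows of Adm and Tpi1 held 0. The Adm window ends 16022 bases downstream of the outermost start of the gene, the Pfkp window 64 bases, and the other 4 lie at the outermost start. A match or its absence describes letters in the window and nothing about binding.

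Adm encodes adrenomedullin, a secreted vasodilator peptide and a classical HIF target, and it was the only gene of the 31 whose difference passed the test in any of the 5 comparisons when all 12 arrays were used. The log2 ratio was 0.42, −0.76 and 0.87 in controls 1, 2 and 3, and 1.47, 0.47 and 0.68 in halothane 1 MAC replicates 1, 2 and 3. It was −0.638, −1.003 and −0.664 in halothane 3 MAC and 1.14, 1.44 and 0.95 in isoflurane 3 MAC. All 3 isoflurane arrays were above every control, all 3 halothane 3 MAC arrays were below every halothane 1 MAC and isoflurane array, and control 2 lay among the halothane 3 MAC arrays. Adm was 3.85-fold lower in halothane 3 MAC than in isoflurane 3 MAC, a log2 difference of −1.95 ± 0.37 (SE, 3 arrays each; 95% interval −2.76 to −1.13, limma adjusted p = 0.0229). In 12 fits that each left out 1 array, the adjusted p ran from 0.00161 to 0.105. It was above 0.05 in the 6 fits that left out one of the 6 arrays compared (0.075 to 0.105) and below it in the other 6.

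The other comparisons of Adm did not pass. Halothane 3 MAC minus halothane 1 MAC was −1.64 ± 0.37 (limma adjusted p = 0.0643), and halothane 3 MAC minus control was −0.94 ± 0.37 (limma adjusted p = 0.707). Isoflurane minus control was 1.00 ± 0.37 (limma adjusted p = 0.366). These values depended on the controls. Without control 2, halothane 3 MAC minus control was −1.41 (limma adjusted p = 0.0303), isoflurane minus control was 0.54 (limma adjusted p = 0.795) and halothane 3 MAC minus halothane 1 MAC had an adjusted p of 0.0066. Halothane 1 MAC minus control moved from 0.70 to 0.23 without control 2, and to 0.40 without halothane 1 MAC replicate 1. Without control 3, halothane 3 MAC minus control was −0.60.

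The means of the astrocyte and cycling cell markers moved with Adm or opposite to it. The mean log2 ratio over 8 measured of 10 listed astrocyte markers was 0.28, −0.93 and 0.24 in controls 1, 2 and 3. It was 0.05 to 0.14 in halothane 1 MAC, −1.08 to −0.97 in halothane 3 MAC and 0.17 to 0.27 in isoflurane. Control 2 and the 3 halothane 3 MAC arrays were the 4 low arrays, as they were for Adm. Between halothane 3 MAC and isoflurane, Gfap, the astrocyte filament protein, differed by −2.94 ± 0.47 (limma adjusted p = 0.017), while Aldh1l1, another astrocyte marker, differed by 0.74 ± 0.17 the other way (limma adjusted p = 0.0373). The mean over 7 of 8 markers of cycling cells ran opposite: −0.64, 0.70 and −0.96 in controls, −0.32 to −0.15 in halothane 1 MAC, 0.86 to 0.93 in halothane 3 MAC and −0.93 to −0.08 in isoflurane. Not every marker of this list followed the mean. Halothane 3 MAC minus isoflurane was 1.92 ± 0.33 for Mcm5 (limma adjusted p = 0.0183). It was −0.09 ± 0.18 for Pcna and 0.38 ± 0.53 for Top2a (limma adjusted p = 0.917 and 0.848). Pcna on control 2 was −0.29, against −0.36 and −0.38 in the other controls. The part of these markers in the Adm difference was not tested. The other marker lists had array means of −0.47 to 0.15 (neuron, 7 of 9), −0.74 to 0.65 (microglia, 4 of 8), −0.23 to 0.84 (oligodendrocyte, 6 of 8) and −0.15 to 0.56 (endothelium, 6 of 7). The microglia mean was −0.66 on control 2 and −0.74 to −0.53 in halothane 3 MAC, against −0.23 and 0.21 in controls 1 and 3. It was −0.28 to 0.54 in halothane 1 MAC and 0.65, −0.74 and −0.40 in isoflurane. The oligodendrocyte mean was 0.15 on control 2 and 0.13 to 0.23 in halothane 3 MAC, against −0.11 and −0.23 in controls 1 and 3. It was −0.15 to 0.08 in halothane 1 MAC and −0.18, 0.84 and −0.10 in isoflurane. Their part was not tested either.

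**Figure D2:**
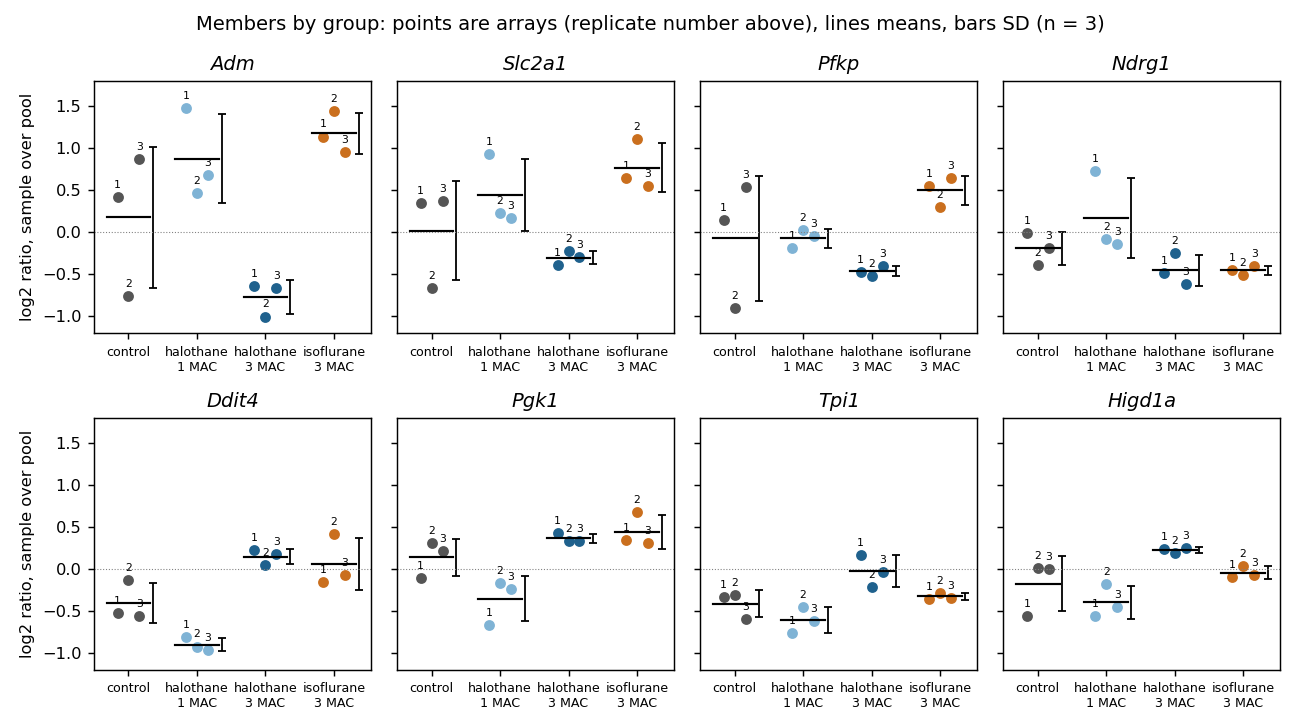
Log2 ratio of sample over pool (y axis) for 8 genes in the 4 groups (x axis); points are arrays with the replicate number above, lines are group means and bars SD (n = 3). Adm, Slc2a1 and Pfkp are low in control 2 and in all halothane 3 MAC arrays, and Ddit4 is lowest in all halothane 1 MAC arrays.

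Among transporters, Slc2a1 (GLUT1, the glucose transporter of the blood-brain barrier and of astrocytes, and a HIF target) had the widest range. Its log2 ratio was 0.34, −0.66 and 0.37 in controls, 0.93, 0.22 and 0.17 in halothane 1 MAC, −0.39, −0.23 and −0.29 in halothane 3 MAC, and 0.65, 1.11 and 0.55 in isoflurane. The order of the arrays was close to that of Adm: isoflurane lay above every control, halothane 3 MAC lay below halothane 1 MAC and isoflurane, and control 2 was the lowest of all. Between the drugs at 3 MAC, halothane minus isoflurane was −1.07 ± 0.29 (limma adjusted p = 0.0705), and the adjusted p was 0.0241 without halothane 1 MAC replicate 1 and 0.0151 without control 2. Isoflurane minus control was 0.75 ± 0.29 (limma adjusted p = 0.378), and 0.41 without control 2 (limma adjusted p = 0.845). The 2 probes of this gene did not move alike: isoflurane minus control was 0.03 on one and 1.48 on the other, and halothane 3 MAC minus isoflurane was −0.21 and −1.94. The differences of the averaged value came mainly from the second probe.

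The remaining transporters varied less. Slc2a3 (GLUT3, the main neuronal glucose transporter) had group means of 0.06 ± 0.25 in control, 0.14 ± 0.10 in halothane 1 MAC, 0.13 ± 0.05 in halothane 3 MAC and −0.09 ± 0.19 in isoflurane (SD, n = 3). The 95% intervals of its 5 differences all include 0. Slc16a1 (MCT1, a lactate and ketone carrier) was above the pool on all 12 arrays, between 0.01 and 0.36. Slc16a3 (MCT4, a lactate exporter of glycolytic cells) was below it on all 12, at −1.39 on halothane 1 MAC replicate 1 and between −0.58 and −0.09 on the 11 others.

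The glycolytic enzymes, read as a list, had nearly the same mean in control, halothane 3 MAC and isoflurane. Averaged over the 14 measured enzymes, halothane 1 MAC replicate 1 stood at −0.29 and the 11 other arrays between −0.20 and −0.09. Their median difference from control was −0.00 in halothane 1 MAC, −0.01 in halothane 3 MAC and 0.00 in isoflurane, with 7 enzymes above 0 and 7 below in each. Over all features tested the same medians were 0.08, 0.00 and 0.00, with 60.8%, 51.1% and 50.6% of features above 0. Without halothane 1 MAC replicate 1 the first of these medians was 0.00, as was that of the enzymes. Halothane 3 MAC minus isoflurane had a median of 0.02 over the enzymes (8 above 0, 6 below) and 0.01 over all features (50.8% above 0). The enzymes did not all lie near 0, since the median size of the difference regardless of sign was 0.23 for isoflurane minus control and 0.25 for halothane 3 MAC minus isoflurane.

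**Figure D3:**
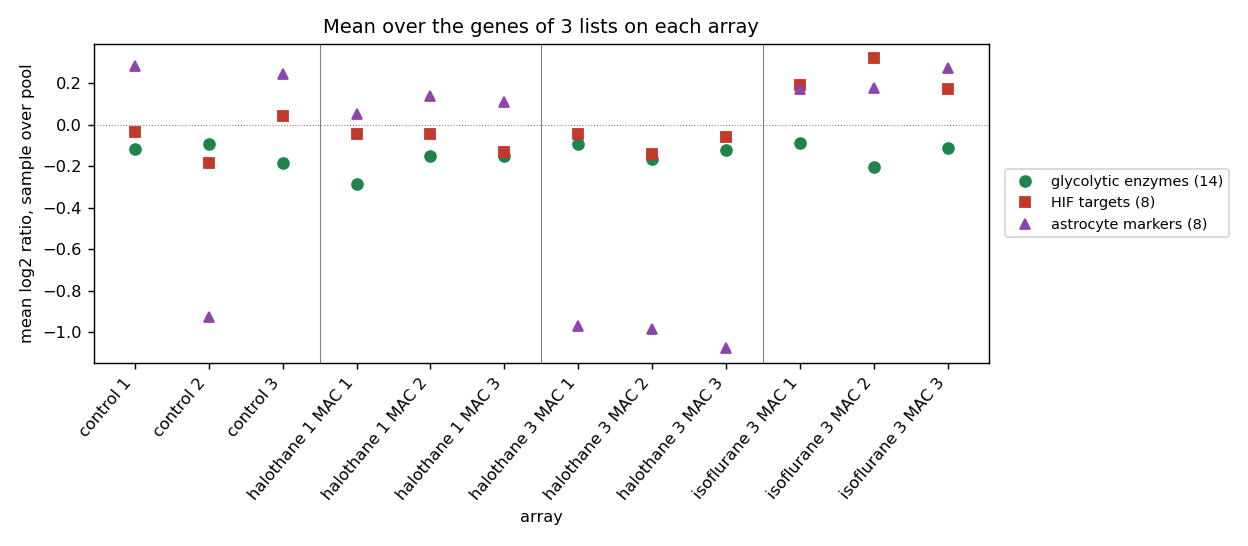
Mean log2 ratio of sample over pool (y axis) over 14 glycolytic enzymes, 8 HIF targets and 8 astrocyte markers on each of the 12 arrays (x axis). The enzymes stay between −0.29 and −0.09, the HIF targets are highest on the 3 isoflurane arrays (0.17 to 0.32), and the astrocyte markers are at −0.93 or below on control 2 and halothane 3 MAC.

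The phosphofructokinases, which catalyse the committed step of glycolysis, differed among themselves. Pfkp, the platelet-type subunit that is also a major brain form, was 0.14, −0.90 and 0.54 in controls, −0.19, 0.03 and −0.05 in halothane 1 MAC, −0.47, −0.52 and −0.40 in halothane 3 MAC, and 0.55, 0.30 and 0.64 in isoflurane. All halothane 3 MAC arrays were below all halothane 1 MAC and isoflurane arrays, and the controls ran from below every halothane 3 MAC array to within the isoflurane range. Halothane 3 MAC minus isoflurane was −0.96 ± 0.29 (1.94-fold, limma adjusted p = 0.0964), and the adjusted p was 0.0041 without control 2. Without that control, halothane 3 MAC minus control moved from −0.39 to −0.80 (limma adjusted p = 0.0329), and without control 3 it was −0.0799. Pfkl and Pfkm, the liver and muscle types, had the opposite sign in the comparison of the 2 drugs, at 0.24 ± 0.14 and 0.27 ± 0.14 (limma adjusted p = 0.455 and 0.404). In isoflurane minus control both were negative, at −0.28 ± 0.14 and −0.30 ± 0.14, with isoflurane arrays below all controls and limma adjusted p of 0.532 and 0.526. The Pfkm value was −0.20 without isoflurane replicate 2.

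Upstream in the pathway, Gpi (glucose-6-phosphate isomerase) was −0.08, −0.20 and −0.36 in controls, 0.09, −0.14 and −0.12 in halothane 1 MAC, −0.13, −0.02 and −0.14 in halothane 3 MAC, and −0.24, −0.68 and −0.40 in isoflurane. On the average of the 2 probes of Gpi, every isoflurane array was below every halothane array, and isoflurane overlapped the controls. On one probe isoflurane was also below every halothane array. On the other, isoflurane replicate 1 (−0.28) was above all halothane 1 MAC arrays (−0.38 to −0.29). It was also above halothane 3 MAC replicates 1 and 3 (−0.29 and −0.33). The Gpi difference, halothane 3 MAC minus isoflurane, was 0.34 ± 0.15 (limma adjusted p = 0.274), and 0.22 without isoflurane replicate 2. Hk1, the main brain hexokinase that traps glucose in the cell, had a mean of −0.30 ± 0.37 in isoflurane against 0.09 ± 0.13 in control (SD, n = 3), and its isoflurane minus control difference was −0.39 ± 0.19 (limma adjusted p = 0.528). Isoflurane replicate 2 was the low array for Hk1, at −0.73 against −0.07 and −0.10 in the other isoflurane arrays, and the difference was −0.18 without it. Hk2, the inducible hexokinase, ranged from −0.17 to 0.42 on 11 arrays, with 1.13 on halothane 1 MAC replicate 1.

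Further along the pathway, Tpi1 and Pgk1 were higher on every halothane 3 MAC array than on any halothane 1 MAC array. Tpi1, triosephosphate isomerase, was −0.34, −0.31 and −0.60 in controls, −0.76, −0.45 and −0.61 in halothane 1 MAC, 0.17, −0.21 and −0.04 in halothane 3 MAC, and −0.36, −0.28 and −0.35 in isoflurane. Halothane 3 MAC was the highest group on all of its arrays, with no overlap with any other group. The Tpi1 difference from halothane 1 MAC was 0.58 ± 0.15 (limma adjusted p = 0.0874), from control 0.39 ± 0.15 (limma adjusted p = 0.707) and from isoflurane 0.30 ± 0.15 (limma adjusted p = 0.356). Pgk1, phosphoglycerate kinase and a HIF target, was −0.11, 0.31 and 0.21 in controls, −0.66, −0.16 and −0.24 in halothane 1 MAC, 0.42, 0.34 and 0.33 in halothane 3 MAC, and 0.35, 0.67 and 0.31 in isoflurane. Halothane 1 MAC was the low group, below all other arrays. Pgk1 in halothane 3 MAC minus halothane 1 MAC was 0.72 ± 0.18 (1.65-fold, limma adjusted p = 0.0779; 0.0459 without control 2), and halothane 1 MAC minus control was −0.49 ± 0.18 (limma adjusted p = 0.626).

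Aldoa, Pgam1, Eno1, Pkm, Ldha and Ldhb complete the chain from aldolase to lactate dehydrogenase. Ldha, the lactate-forming subunit and a HIF target, was −0.40, −0.31 and −0.50 in controls, −0.92, −0.03 and −0.05 in halothane 1 MAC, −0.46, −0.68 and −0.47 in halothane 3 MAC, and −0.35, −0.77 and −0.33 in isoflurane. Ldha was below the pool on all 12 arrays, and the groups overlapped except that replicates 2 and 3 of halothane 1 MAC were the highest arrays. For Ldha, halothane 3 MAC minus halothane 1 MAC moved from −0.20 ± 0.23 to −0.50 ± 0.15 without replicate 1 (limma adjusted p = 0.617 and 0.0958). Eno1, enolase, was also below the pool on all 12 arrays (−0.60 to −0.25). Ldhb, the subunit of oxidative tissues, stood at −1.35 on halothane 1 MAC replicate 1 and between −0.67 and 0.11 elsewhere. On halothane 1 MAC replicate 1 the 2 probes of Ldhb gave −0.51 and −2.19. For the 13 enzymes other than Pfkp, the difference between halothane 3 MAC and isoflurane was between −0.28 and 0.34, and the 95% intervals reached from −0.75 to 0.87 at their widest.

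The 3 flux regulators act around the pathway. Pdk1, the kinase that inhibits pyruvate dehydrogenase, and so limits entry of pyruvate carbon into the citric acid cycle, and a HIF target, was −0.09, 0.19 and 0.30 in controls, −0.16, 0.19 and 0.01 in halothane 1 MAC, 0.39, 0.34 and 0.36 in halothane 3 MAC, and 0.44, 0.67 and 0.27 in isoflurane. The halothane 3 MAC arrays lay above all control and halothane 1 MAC arrays. The high minus the low halothane dose was 0.35 ± 0.16 (limma adjusted p = 0.266). Pfkfb3, which makes the phosphofructokinase activator fructose-2,6-bisphosphate, was above the pool on all 12 arrays (0.31 to 1.24). Pfkfb4, a related enzyme, was 0.81 on halothane 1 MAC replicate 1 and between −0.08 and 0.12 on the 11 other arrays.

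The HIF targets did not move as one. The mean over the 8 measured targets was 0.17 to 0.32 on the isoflurane arrays, −0.18 to 0.04 in controls, −0.13 to −0.04 in halothane 1 MAC and −0.14 to −0.04 in halothane 3 MAC. Without Adm, left out after its values were seen, the means of the other 7 were 0.06 to 0.16 in isoflurane, −0.10 to −0.07 in controls, −0.26 to −0.12 in halothane 1 MAC and −0.02 to 0.04 in halothane 3 MAC. In isoflurane minus control 7 of the 8 targets were above 0, against 50.6% of all features tested. Their median was 0.23, against 0.00 over all features. In halothane 3 MAC minus control 5 of 8 were above 0 (51.1% of all features), with a median of 0.09 against 0.00. In halothane 1 MAC minus control 3 of 8 were above 0 (60.8% of all features), with a median of −0.08 against 0.08. Without replicate 1 of halothane 1 MAC, 4 of 8 were above 0, and these medians were −0.03 and 0.00. Between the halothane doses the median was 0.17 against −0.08 over all features, and −0.02 against 0.01 without halothane 1 MAC replicate 1. Between halothane and isoflurane at 3 MAC it was −0.04 against 0.01.

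Ddit4 (REDD1), a stress-induced inhibitor of mTORC1 signalling, separated the halothane doses. It was −0.52, −0.13 and −0.56 in controls, −0.81, −0.92 and −0.97 in halothane 1 MAC, 0.22, 0.05 and 0.17 in halothane 3 MAC, and −0.15, 0.42 and −0.08 in isoflurane. The low dose of halothane was below every control and the high dose above every control, with no overlap among these 3 groups. Isoflurane overlapped the high dose, and also the controls, since its replicate 1 (−0.15) was below control 2 (−0.13). Halothane 3 MAC minus halothane 1 MAC was 1.05 ± 0.18 (2.07-fold, 95% interval 0.66 to 1.44, limma adjusted p = 0.0607). The adjusted p was 0.0426 without halothane 1 MAC replicate 1 and 0.0057 without control 2. Ddit4 minus control was −0.50 ± 0.18 in halothane 1 MAC, 0.55 ± 0.18 in halothane 3 MAC and 0.47 ± 0.18 in isoflurane (limma adjusted p = 0.626, 0.696 and 0.375). The isoflurane difference was 0.29 without isoflurane replicate 2.

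Higd1a, a mitochondrial protein of the respiratory chain that is induced by hypoxia, was −0.55, 0.02 and 0.00 in controls, −0.56, −0.18 and −0.46 in halothane 1 MAC, 0.23, 0.18 and 0.25 in halothane 3 MAC, and −0.10, 0.04 and −0.07 in isoflurane. On the average of the 2 probes of Higd1a, halothane 3 MAC was above all other arrays. On one probe it was also above them. On the other it was 0.06 to 0.07, below control 3 (0.09) and isoflurane replicate 2 (0.18). The Higd1a difference from halothane 1 MAC was 0.62 ± 0.17 (limma adjusted p = 0.102), and its 2 probes gave 0.18 and 1.06. Ndrg1, a stress-responsive gene of myelinating and epithelial cells, was −0.01, −0.39 and −0.19 in controls, 0.72, −0.08 and −0.13 in halothane 1 MAC, −0.49, −0.25 and −0.62 in halothane 3 MAC, and −0.45, −0.50 and −0.40 in isoflurane. Both groups at 3 MAC were below all halothane 1 MAC arrays, and isoflurane was also below all controls. Ndrg1 in halothane 3 MAC minus halothane 1 MAC was −0.62 ± 0.22 (limma adjusted p = 0.165), and −0.34 without halothane 1 MAC replicate 1.

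Vegfa, the endothelial growth factor, was 0.66, −0.04 and 0.07 in controls, 0.42, 0.04 and −0.09 in halothane 1 MAC, 0.57, 0.40 and 0.20 in halothane 3 MAC, and 0.47, 0.89 and 0.55 in isoflurane. All groups overlapped the control range, which control 1 widened. Isoflurane minus control was 0.41 ± 0.22 (limma adjusted p = 0.59), 0.27 without control 2 and 0.62 without control 1. Bnip3, a mitophagy receptor, had a mean of 0.46 ± 0.13 in isoflurane and −0.17 ± 0.16 in halothane 3 MAC (SD, n = 3) without overlap, and a value of −1.48 on halothane 1 MAC replicate 1. The Bnip3 difference between these drugs was −0.63 ± 0.34 (limma adjusted p = 0.403), and the adjusted p was 0.0245 without that array. Egln3, an oxygen-sensing prolyl hydroxylase, and P4ha2, a collagen prolyl hydroxylase, had an unadjusted p above 0.05 in all 5 comparisons, with array values between −0.60 and 0.48.

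The subunits themselves are regulated mainly through protein stability, which these arrays do not measure. Hif1a, encoding HIF-1 alpha, was −0.17, 0.13 and 0.48 in controls, 0.01, 0.19 and 0.07 in halothane 1 MAC, 0.24, 0.22 and 0.10 in halothane 3 MAC, and 0.35, 0.66 and 0.47 in isoflurane. Isoflurane was above both halothane groups and overlapped control 3. Hif1a in isoflurane minus control was 0.35 ± 0.17 (limma adjusted p = 0.536), and 0.19 without control 1. Epas1, encoding HIF-2 alpha, was −0.08, −0.59 and 0.26 in controls, 0.09, −0.10 and −0.15 in halothane 1 MAC, −0.30, 0.03 and −0.36 in halothane 3 MAC, and 0.05, 0.09 and 0.09 in isoflurane. The controls of Epas1 spanned every other group. Epas1 in halothane 3 MAC minus isoflurane was −0.29 ± 0.20 (limma adjusted p = 0.575).

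Counted over the set, the comparisons with air gave no call. In halothane 1 MAC minus control limma called 0 of 31 genes at an adjusted p under 0.05 (background 0% of all features), and 2 (6.45%) had an unadjusted p under 0.05 against 7.54% of all features. Both, Pgk1 and Ddit4, were lower, as 2.53% of all features were, and 5% of features were higher. In halothane 3 MAC minus control 0 of 31 were called (background 0%), and 4 (12.9%) had an unadjusted p under 0.05 against 6.58%. Tpi1, Ddit4 and Higd1a were the 3 with a positive difference (3.34% of all features) and Adm the 1 with a negative one (3.25%). In isoflurane minus control 0 of 31 were called (background 0.0725%), and 3 (9.68%) had an unadjusted p under 0.05 against 10.1%. Slc2a1, Adm and Ddit4 all had a positive difference (6.79% of all features, with 3.35% negative). Groups did not overlap for 4, 5 and 7 of the 31 genes in these comparisons (12.9%, 16.1% and 22.6%), against 10.2%, 16.1% and 22.7% of the features with all values. Most of these shares are near the background.

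Between the halothane doses 0 of 31 genes were called (background 0%), and 8 (25.8%) had an unadjusted p under 0.05 against 18.5% of all features. These were Ddit4, Pgk1, Tpi1, Higd1a and Pdk1 with positive differences (7.93% of all features) and Adm, Slc2a1 and Ndrg1 with negative ones (10.6%). The doses did not overlap for 10 of the 31 (32.3%, against 27.5%). Between halothane and isoflurane at 3 MAC 1 of 31 was called, Adm (3.23%, background 3.51%), 4 had an unadjusted p under 0.05 (12.9%, against 16.7%), and 14 did not overlap (45.2%, against 37.4%). The 4 were Adm, Slc2a1 and Pfkp with negative differences (9.86% of all features) and Gpi with a positive one (6.88%).

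**Figure D4:**
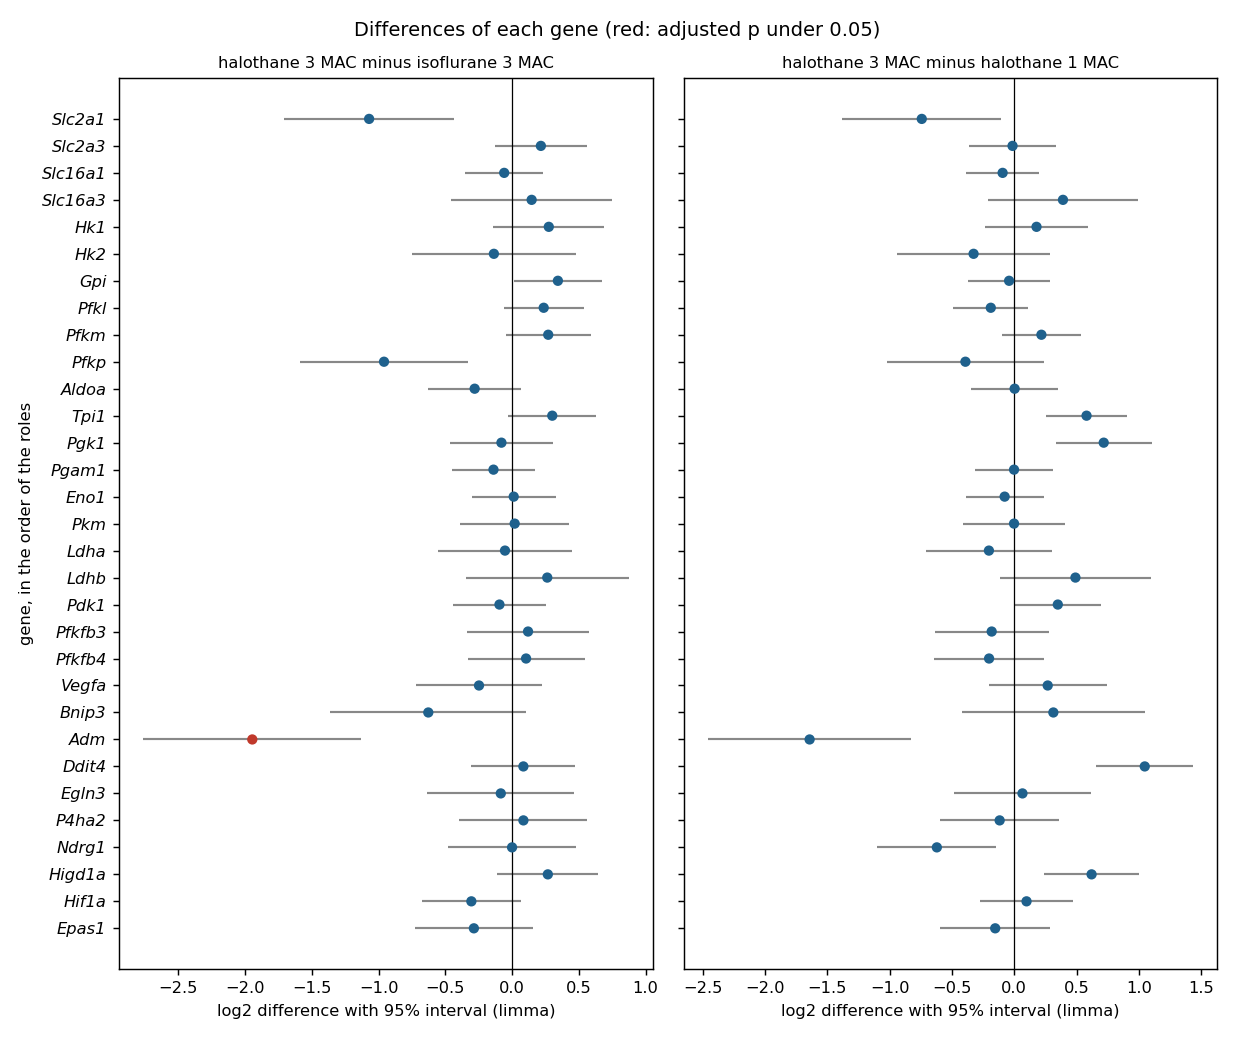
Log2 difference with its 95% interval (x axis) for the 31 genes (y axis) in halothane 3 MAC minus isoflurane 3 MAC and in halothane 3 MAC minus halothane 1 MAC, from limma; red marks an adjusted p under 0.05. Adm in halothane 3 MAC minus isoflurane 3 MAC (−1.95) is the only red point, and Ddit4 has the highest value between the halothane doses (1.05).

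Leaving out the arrays that stood apart changed these counts. Without halothane 1 MAC replicate 1, limma called Ddit4 between the halothane doses (background 0.427%) and Slc2a1, Bnip3 and Adm between halothane and isoflurane (background 12.6%). Without control 2, it called Pfkp and Adm in halothane 3 MAC minus control (background 2.94%), Pgk1, Adm and Ddit4 between the halothane doses (background 4.51%), and Slc2a1, Pfkp and Adm between halothane and isoflurane (background 6.57%). In halothane 1 MAC minus control and isoflurane minus control 0 of the 31 were called in either case (background 0% in the former, and 2.5% and 0.0311% in the latter).

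A wider list of 91 other genes of glucose, glycogen and pyruvate metabolism, the pentose phosphate route and the hypoxia response held 72 with a named probe, of which 70 were tested. Limma called 0 of them in each comparison with air and between the halothane doses, where 3, 1, 5 and 4 were higher and 1, 5, 1 and 13 lower at an unadjusted p under 0.05. These are 5.71%, 8.57%, 8.57% and 24.3% of the 70, against 7.54%, 6.58%, 10.1% and 18.5% of all features. Between halothane and isoflurane at 3 MAC 4 were called (5.71%, background 3.51%), all lower in halothane, and 5 were higher and 12 lower at an unadjusted p under 0.05 (24.3%, against 16.7%). Hmox1, the haem-degrading enzyme of oxidative stress and hypoxia, differed by −3.56 ± 0.56 (limma adjusted p = 0.017), with −2.01, −2.11 and −2.26 in halothane 3 MAC and 1.22, 1.74 and 1.34 in isoflurane. Control 2, at −2.21, was again with the halothane 3 MAC arrays, against 0.08 and 0.82 in the other controls. Pygl, the liver-type glycogen phosphorylase, differed by −1.79 ± 0.28 (limma adjusted p = 0.0155), with −0.57, −0.28 and −0.70 in halothane 3 MAC and 1.19, 1.41 and 1.22 in isoflurane. For Pygl control 2, at −0.21, lay between the other controls (−0.32 and 0.23).

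Ankrd37, a HIF target of unsettled function, and Cdkn1a, the cell cycle inhibitor p21, were the other called genes, at −1.24 ± 0.26 and −0.81 ± 0.19 (limma adjusted p = 0.0307 and 0.0405). With single arrays left out, the highest adjusted p was 0.0898 for Hmox1 and Pygl, 0.12 for Ankrd37 and 0.166 for Cdkn1a. Pgm1, phosphoglucomutase, which links glycogen to glycolysis, was 0.72 ± 0.19 without passing (limma adjusted p = 0.0586). In isoflurane minus control 3 glycogen genes, Cdkn1a and Hmox1 had an unadjusted p under 0.01 without passing the test. The glycogen genes were Pygl at 1.37 ± 0.28, Pgm1 at −0.72 ± 0.19 and Gbe1, the glycogen branching enzyme, at 0.59 ± 0.18 (limma adjusted p = 0.0918, 0.164 and 0.237). Cdkn1a was at 0.72 ± 0.19 and Hmox1 at 1.87 ± 0.56 (limma adjusted p = 0.164 and 0.237). Without halothane 1 MAC replicate 1 the adjusted p was 0.00866 for Pygl, 0.0316 for Pgm1 and 0.0406 for Cdkn1a, and above 0.05 for Gbe1 and Hmox1. Without control 2 the Hmox1 difference was 0.98 (limma adjusted p = 0.281). Between the halothane doses Ankrd37 was −1.14 ± 0.26 and Gpd1, glycerol-3-phosphate dehydrogenase, −1.83 ± 0.46 (limma adjusted p = 0.0653 and 0.0838). Bnip3l, a mitophagy receptor related to Bnip3, was −0.68 ± 0.18, Hmox1 −2.16 ± 0.56 and Pck2, the mitochondrial phosphoenolpyruvate carboxykinase, −1.21 ± 0.32, with limma adjusted p of 0.0885, 0.0887 and 0.0961. Without control 2 all 5 of these passed between the doses, with adjusted p of 0.000553 (Hmox1) to 0.0209 (Gpd1).

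The counts over the wider list also moved with these arrays. Without halothane 1 MAC replicate 1 limma called 3 of the 70 in isoflurane minus control (4.29%, background 2.5%) and 16 between halothane and isoflurane (22.9%, background 12.6%), Pgm1 among them (limma adjusted p = 0.0139). Without control 2 it called 4 in halothane 3 MAC minus control (5.71%, background 2.94%), 7 between the halothane doses (10%, background 4.51%) and 7 between halothane and isoflurane (10%, background 6.57%).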

How the data were processed

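RNA of 12 plates was hybridised to two-colour Agilent arrays, with the sample in Cy5 and a pool of control RNA in Cy3 per the labels. The authors deposited 1 value per spot, read here as a log10 ratio of Cy5 over Cy3, since their size stops at 2 (100-fold). Partek is named per the submitters' processing notes. How background and dye bias were corrected was not given in the sources used here. Without spot intensities no probe could be set against its background. Precision is limited by the number of arrays.

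Of 21575 spots, 12750 had 1 gene symbol, 5 several and 8820 none. Of the named spots, 12720 matched the RefSeq gene table by gene ID and 7 by accession, and 1 was renamed. Values were multiplied by 3.32 to give log2, and exact zeros (5.96%) were treated as missing. The 471 unnamed spots at the limit on 10 or more arrays were left out. Probes of a gene were averaged (Slc2a1, Gpi, Ldhb and Higd1a have 2). A feature was tested when each group had 2 or more values.

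The test was limma's moderated, two-sided one (version 3.58.1, R 4.3.3) from a single fit of 4 group means to the 12 arrays (8 residual and 3.46 prior degrees of freedom), adjusted by Benjamini-Hochberg over 16545 features with a threshold of 0.05. SE comes from this fit and SD from 3 arrays. The fit was tested on simulated data in which a feature had the same spread on every array. The simulation does not cover the arrays that stood apart. Tables and plots were made with Python 3.11.15, pandas 2.3.3, numpy 2.4.6 and matplotlib 3.10.9. Promoter windows are the 250 bases before the 1 start per gene in the RefSeq promoter table, which for 12 of 28 measured genes is not the outermost start in the RefSeq gene table.

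The genes, wider list and marker lists were chosen with earlier results of these data known. Aldoc stands in both the astrocyte and the wider list, and Kdr and Flt1 in both the endothelium and the wider list. Eno2, not analysed here, is also on the neuron list. Genes described on every array had an unadjusted p under 0.05 in a comparison, or were Slc2a1, Ldha, Vegfa, Hif1a or Epas1. Wider genes were named at an unadjusted p under 0.01, at most 5 per comparison. No pairing by replicate number was seen: deviations from group means correlated at −0.076 to 0.0973 over the 18 pairs with the same number. With 3 arrays per group, and some that stood apart, these values cannot tell whether arrays with the same number shared a rat. The alternatives are in the closing section.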

Additional observations from a re-analysis of the deposited data

Results flagged for a closer look

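Adm differed between halothane and isoflurane at 3 MAC, each set against the same 3 controls, by −1.95 on the log2 scale (limma adjusted p = 0.0229). The difference from control was −0.94 for halothane 3 MAC and 1.00 for isoflurane, or −1.41 and 0.54 without control 2, and the difference of these effects was tested directly. All 3 halothane 3 MAC arrays were below all 3 isoflurane arrays.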

How the results depend on the processing

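Over 24 alternatives the 14 genes described on every array gave 1680 values in the 5 comparisons, of which 1633 stayed on the same side of the threshold (52 of them with the other sign, neither value being past it), 41 newly passed it, 6 no longer passed it and 0 passed it with the opposite sign. The 6 were Adm between halothane and isoflurane at 3 MAC with one of its own arrays left out. Counts of features called ran as follows. In halothane 1 MAC minus control 0 became 1 with exact zeros kept, 1 with quantile normalisation, 1 with arrays scaled to one spread and 5 with array weights. In halothane 3 MAC minus control 0 became 893 with weights. In isoflurane minus control 12 became 7 with zeros kept, 5 with arrays centred, 4 with quantile normalisation, 7 with limit spots kept, 1 with the trend and robust settings, 398 with weights and 1 with only the compared groups. Between the halothane doses 0 became 153 with quantile normalisation, 6 with scaled spread, 5042 with weights and 292 with only the compared groups. Between halothane and isoflurane 580 became 4492 with weights and 2785 with only the compared groups. Of the 31 genes, weights called 2 in halothane 3 MAC minus control, 10 between the doses and 8 between the drugs, quantile normalisation called 1 between the doses, and the compared groups alone called 2 between the doses and 4 between the drugs. The weight estimate stopped before it reached its convergence tolerance.

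Leaving out halothane 1 MAC replicate 1 and control 2 together, an alternative added after seeing the data, called 3, 1849, 337, 1706 and 3058 features, in the order used above, and 0, 4, 0, 4 and 4 of the 31 genes. Leaving out single arrays gave 0 to 5, 0 to 473, 1 to 410, 0 to 726 and 1 to 2069 features, and 0, 0 to 2, 0, 0 to 3 and 0 to 3 of the 31. With the replicate block, on numbers for which no pairing was seen, 0, 0, 1, 0 and 431 features and 0, 0, 0, 0 and 1 of the 31 were called (Adm, limma adjusted p = 0.0317). Of the 12 arrays 4 correlated best with their own number.

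The median difference of the glycolytic enzymes became −0.10 in halothane 1 MAC minus control and 0.0917 between the doses with arrays centred, and 0.0615 in isoflurane minus control with scaled spread. With single arrays left out it ran from −0.0759 to 0.0508, −0.0602 to 0.0352, −0.0904 to 0.0553, −0.0281 to 0.0349 and −0.0174 to 0.0731. The median of the HIF targets in halothane 1 MAC minus control was −0.17 centred and 0.0482 with weights. In halothane 3 MAC minus control it was −0.0223 with weights and 0.00107 with both arrays left out. Between the doses it was 0.26 centred, 0.0731 with quantile normalisation, 0.0531 with scaled spread, −0.0119 with weights and −0.0246 with both arrays left out. With single arrays left out it ran from −0.159 to 0.108, −0.00172 to 0.122, 0.23 to 0.28, −0.0246 to 0.251 and −0.0769 to −0.00363. Where these values moved, the cause was not tested.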

Other observations

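Some of the genes lay on one side of the control pool on every array, controls included. Slc16a1 and Pfkfb3 were above it on all 12 arrays (6.45% of the 31 genes), and Slc16a3, Eno1 and Ldha were below it on all 12 (9.68%). Among the 15918 features with 12 values, 4.02% were above and 2.96% below on every array. These 5 genes were chosen for their signs, and the values are descriptive.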
